A study of Caenorhabditis elegans with 161 samples.

Results

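The transcripts described here are those of the mitochondrial genome of the nematode Caenorhabditis elegans, counted in whole embryos. They were chosen as the rows of the count table whose identifier begins with MTCE, the prefix of genes on mitochondrial DNA, and 12 of 20687 genes carried it. The symbols are from RefSeq, and gene type and neighbours from the Ensembl annotation (assembly WBcel235), used here for nothing else. All 12 are protein-coding there. They are 7 subunits of complex I, ND1 (MTCE.11), ND2 (MTCE.16), ND3 (MTCE.34), ND4 (MTCE.25), ND4L (MTCE.4), ND5 (MTCE.35) and ND6 (MTCE.3), the complex III subunit CYTB (MTCE.21), the complex IV subunits COX1 (MTCE.26), COX2 (MTCE.31) and COX3 (MTCE.23), and the complex V subunit ATP6 (MTCE.12). In the Ensembl annotation ND6 and ND4L overlap, as do ND1 and ATP6, and ND3 and ND5. The extent of overlap was not examined. Reads could be split within each of these pairs, so their separate values may be less certain.

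Mitochondria make most of a cell's ATP by passing electrons along respiratory complexes in the inner membrane and letting the pumped protons return through the ATP synthase, complex V. Each of these complexes except complex II is built from subunits of both genomes, since mitochondrial DNA keeps only a few core membrane subunits and nuclear genes supply the rest. An early embryo inherits its mitochondria and their RNA from the egg. The mitochondrial transcripts come from a separate genome with its own polymerase, and some nuclear partners are given beside them.

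Libraries came from 20 strains at 7 stages, 0, 60, 180, 270, 440, 650 and 830 min after the 4-cell stage, with 1 library for each strain and stage. Of the strains, 19 are mutation-accumulation lines, which are propagated through bottlenecks so that mutations build up with little selection, and the other is N2, the laboratory wild type. No treatment distinguished the groups. Eggs were cut from adults, collected as 4-cell embryos and incubated at 20 °C, with 10 pooled embryos in every library. A further 21 libraries repeated strain 522, with 3 at each of 7 time points called A to G after their titles, because the time given in the labels contradicts the title in 18 of them. The first 6 strains of the sample numbering (550, 570, 502, 555, N2 and 575) stand apart from the other 14 in mitochondrial counts, and this step is kept as an effect of the library set throughout. Set and strain identity cannot be told apart, and nor can a strain and the preparation of its libraries. The labels do not tie pools to separate cultures, so the p-values reflect only the spread among these libraries, which may be technical.

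RNA with a polyA tail was counted by CEL-Seq, which tags the 3′ ends of transcripts, so levels of different genes were compared as 3′-end counts with no scaling by length. Total gene counts ran from 5653 to 525902 in the strain libraries, with a median of 84159 in the first 6 strains and 47272.5 in the other 14, and from 58543 to 623958 in the repeats. In 4 strain libraries the total lay under 14299.75, a share of 0.25 of the median. The highest count of any gene in any library was 1023, which may be an upper limit of the counting. Of the 1932 counts of the 12 transcripts, the highest was 849, 62 lay above 512 (28 of them of COX1, none of ND4 or ND5), and 11 were 0. A count of 0 there allows up to 116.9 to 530.7 CPM (3 counts of the library's total, counting error only). All 140 strain libraries and all 21 repeats resembled the mean of their own stage best. In a bulk sample, fewer mitochondria or cells and less RNA in each cannot be told apart.

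Levels are given in CPM, the count of a transcript per 1000000 gene counts of its library. COX1, the catalytic core of cytochrome c oxidase, was the most counted of the 12 in 83.6% of the 140 strain libraries and in 21 of 21 repeats. COX2, the subunit that takes electrons from cytochrome c, led in 10 libraries and ND4L in 9. At the other end, ND5 and ND4, 2 large subunits of the proton-pumping arm of complex I, were among the lowest 2 in 87.9% and 71.4% of them. COX1 held 7.69% to 41.2% of the counts of the 12 transcripts, with a median of 18.96%, while ND4L ranged from 1.69% to 26.8% around a median of 7.30%. The same transcripts thus stood at both ends of the order in most libraries, and ND4L had a wide range.

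The 12 transcripts together held a median of 1.08% of all gene counts in the strain libraries (lowest 0.215%, highest 4.70%, n = 140). Over the 7 stages, from 0 to 830 min, the medians of the 20 strains were 0.585%, 0.960%, 1.22%, 1.38%, 1.23%, 1.12% and 1.07%. The share was higher at 60 than at 0 min in 19 of 20 strains, and higher at 180 than at 60 min in 17 of 20. It was higher at 830 than at 0 min in 19 of 20. Between 650 and 830 min the strains were evenly divided, with 10 of 20 higher at the later stage. In the first 6 strains the medians were 1.13%, 1.56%, 2.06%, 2.25%, 2.96%, 2.18% and 2.01%, and in the other 14 they were 0.459%, 0.731%, 1.04%, 0.982%, 1.02%, 0.992% and 0.852%. Being a sum over the 12, the share is given with no test.

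**Figure D1:**
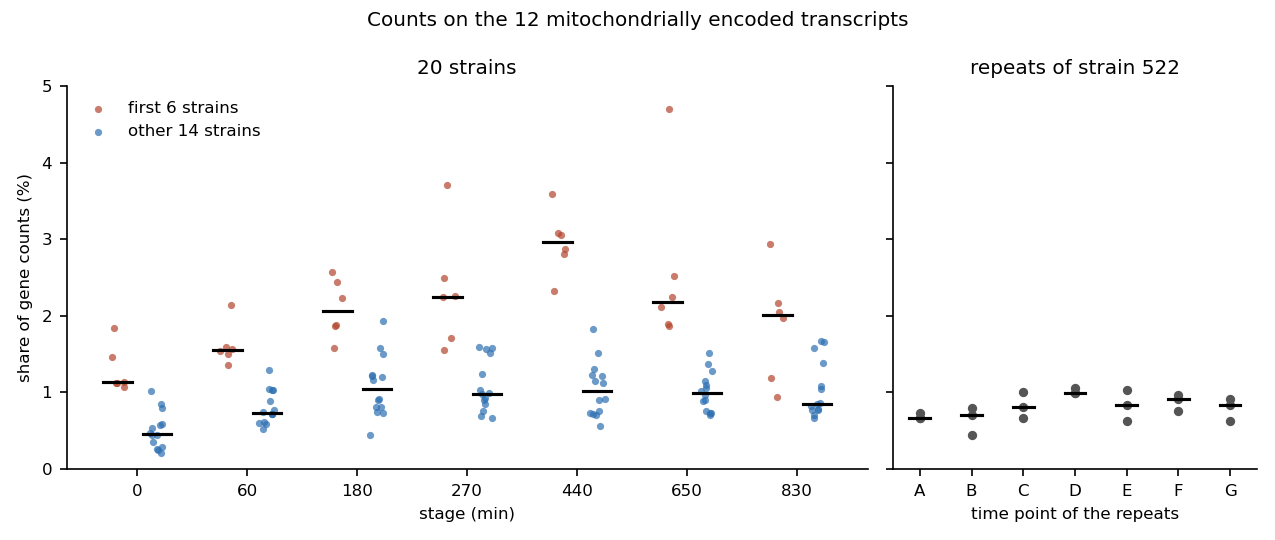
Share of all gene counts on the 12 mitochondrial transcripts (percent, y axis) in every library, by minutes after the 4-cell stage for the strain libraries and by time points A to G for the repeats of strain 522. Points are libraries and bars their medians, and the first 6 strains sit above the other 14 at 0, 60, 440 and 650 min with no overlap.

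The 3 complex IV transcripts followed different courses within that share. COX1 had medians of 1413, 1967, 1951, 2398, 2191, 2230 and 2186 CPM over the 7 stages in all 20 strains. Its level at 0 min ran from 601 to 4577 CPM and at 830 min from 1496 to 6677 CPM, so the strains overlapped at the ends of the course. COX2 had medians of 628, 1093, 1767, 1644, 1347, 1461 and 1189 CPM. Its highest median was at 440 min in the first 6 strains (3997 CPM) and at 180 min in the other 14 (1537 CPM). COX3, a core subunit with no metal centre, had medians of 676, 1034, 1487, 1578, 1369, 1248 and 1167 CPM.

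CYTB, the heme-bearing core of complex III, had medians of 431, 583, 901, 863, 1042, 1066 and 1015 CPM over the 7 stages. It was at 0 in 2 of the strain libraries. ATP6, which forms part of the proton path of the ATP synthase, had medians of 408, 890.2, 1205, 1141, 1001, 1191 and 1413 CPM. The medians of both were lowest at 0 min in each library set. That of ATP6 was highest at 440 min in the first 6 strains (3209 CPM) and at 830 min in the other 14 (1178 CPM).

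Among the complex I transcripts, ND4 had medians of 75.95, 210.3, 449, 441, 455, 416 and 357 CPM, and at 0 min its libraries ran from 0 to 265 CPM. ND5 had medians of 98.95, 242, 281, 339, 328, 248 and 309 CPM. ND1 had medians of 392, 745, 998, 974, 1052, 1032 and 738 CPM. These 3 stood at more than 2 times their first median at 440 min in each library set. So did ND2 and ND3, though ND3 only just in the other 14 strains (594 CPM, against 296 CPM at 0 min). ND2 had medians of 331, 591, 810.4, 723, 717, 700.5 and 595 CPM, and ND3 had 416, 554, 824, 751, 758, 674 and 461 CPM. ND6 had medians of 607, 805, 1158, 1003, 1051, 913 and 617 CPM, and ND4L had 617, 818, 1114, 1015, 827, 856 and 679.6 CPM. Pooling the sets hides part of the course of these last 3. ND3 was higher at 830 than at 0 min in 14 of 20 strains, ND6 in 16 and ND4L in 14. The median of ND6 was 1254 CPM at 830 min and 910.2 CPM at 0 min in the first 6 strains, and 525 CPM at 830 min and 372 CPM at 0 min in the other 14.

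**Figure D2:**
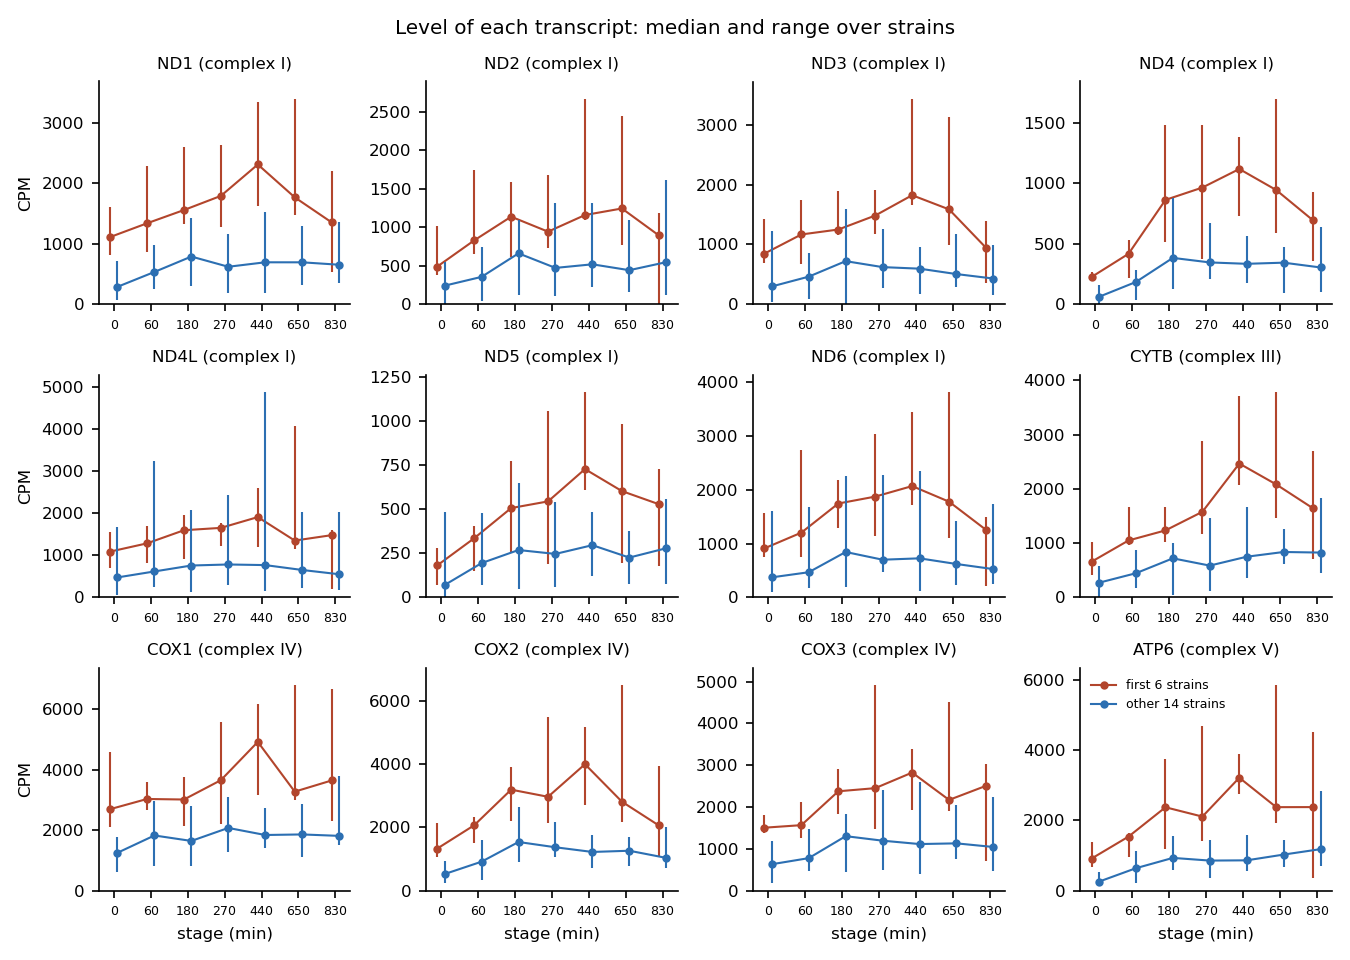
Level in CPM (y axis) of each of the 12 transcripts by stage in minutes (x axis), 1 panel per transcript. Lines join the medians of the first 6 and of the other 14 strains and bars run from the lowest to the highest library, and the first 6 have the higher median in every panel and stage.

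For adjacent stages of the strains, edgeR's quasi-likelihood test was run over all genes with the library set as a term. A gene was called where its fold was 2 or more and its Benjamini-Hochberg adjusted p lay under 0.05. From 0 to 60 min, ND4 was the only one called of 11 transcripts tested. It had a lowest, median and highest level of 36.5, 210.3 and 529 CPM at 60 min, against 0, 75.95 and 265 CPM at 0 min, ranges that overlap. Its log2 fold change was 1.08 ± 0.17 (SE, n = 20 per stage, edgeR adjusted p = 8.04e-08), and 31.8% of all genes tested were called, 9.82% as higher. The fold lies near the 2-fold limit. The call was lost in 7 of the alternatives. In 3 of the 7 ND4 did not pass the filter on low counts and so was not tested. These were the other 14 strains alone, the fit without N2 and counts corrected for an upper limit. Of the 10 transcripts not called, ATP6 had a log2 fold change of 0.84 ± 0.16 (edgeR adjusted p = 3.13e-06) and COX2 of 0.63 ± 0.13 (edgeR adjusted p = 2.19e-05). COX1, CYTB, ND1 and ND2 also had an edgeR adjusted p under 0.05, with folds under the 2-fold limit. ND5 did not pass the filter on low counts there.

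From 60 to 180 min, ND4 was again the only one called, now of 12 tested. It had a lowest, median and highest level of 123.8, 449 and 1479 CPM at 180 min, against 36.5, 210.3 and 529 CPM at 60 min. The log2 fold change was 1.14 ± 0.16 (n = 20 per stage, edgeR adjusted p = 6.49e-09), with 44.9% of all genes tested called, 22.9% as higher. That call was made under every alternative tried. COX1 had a log2 fold change of 0.01 ± 0.12 between these stages and a level higher at 180 than at 60 min in 9 of 20 strains. ATP6 (0.68 ± 0.15, edgeR adjusted p = 4.02e-05) and COX2 (0.67 ± 0.13, edgeR adjusted p = 4.87e-06) had folds under the 2-fold limit. COX3, CYTB, ND1, ND2, ND3 and ND5 likewise had folds under that limit with an edgeR adjusted p under 0.05. The share of all genes at that adjusted p alone was not computed.

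None of the 12 was called by edgeR in the later adjacent comparisons, where 14.9% (180 to 270 min), 40.7% (270 to 440 min), 43.9% (440 to 650 min) and 23.2% (650 to 830 min) of all genes tested were called. At an unadjusted p under 0.05 there were 1, 3, 5 and 6 of the 12 in these comparisons, with no share of all genes computed at that p. DESeq2 called 0 in each. From 650 to 830 min the largest folds were those of ND3 (-0.53 ± 0.20) and ND6 (-0.50 ± 0.23), below the 2-fold limit, and in the first 6 strains alone 2 transcripts were called lower.

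Across the whole course, 9 of 12 transcripts were called higher at 830 than at 0 min, beside 34.2% of all genes tested called higher. ND4 was at 97.9, 357 and 925 CPM (lowest, median and highest) at 830 min, against 0, 75.95 and 265 CPM at 0 min, and was higher in 20 of 20 strains, with a log2 fold change of 2.47 ± 0.23 (edgeR adjusted p = 1.24e-16). ATP6 was at 354, 1413 and 4503 CPM at 830 min, against 150.2, 408 and 1373 CPM at 0 min, with 2.26 ± 0.21 (edgeR adjusted p = 3.78e-16) and a higher level in 19 of 20 strains. Ranges overlapped between the stages for both, and the difference lay within nearly every strain. The log2 fold changes of CYTB and ND5 were 1.88 ± 0.23 and 1.84 ± 0.25, and the others called were ND2 (1.55 ± 0.29), COX2 (1.36 ± 0.18), ND1 (1.31 ± 0.23), COX3 (1.22 ± 0.21) and COX1 (1.07 ± 0.17). ND3 (0.84 ± 0.24), ND6 (0.80 ± 0.25) and ND4L (0.57 ± 0.27) were not called.

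The size of these folds depends on how the libraries are scaled, and 77.7% of all genes tested were called in one direction or the other. The median log2 fold change of all genes tested was -0.36 with the TMM factors used here and -1.02 with library totals alone. With library totals alone 4 of 12 were called, beside 30.4% of all genes called higher, namely ND4 (1.81), ATP6 (1.61), CYTB (1.20) and ND5 (1.15), and the fold of ND4L turned to -0.11. Relative to the median gene all 12 lay above 0, 11 of them by at least 2-fold, and all those tested lay above it in each alternative. With no filter on low counts, which moves the median gene to 0.82, the number above it by 2-fold was 4. ATP6 and CYTB were called in each of 13 settings, with log2 fold changes of 1.61 to 3.09 and 1.20 to 2.82, and ND4 and ND5 in each of the 12 in which they could be tested, with 1.81 to 3.18 and 1.15 to 2.90. COX1 was called in 9 of 13, COX2, COX3 and ND1 in 10 and ND2 in 12.

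In the repeats of strain 522, 9 of 12 were called higher at G than at A, beside 39.2% of all genes tested, and they were the 9 called between 830 and 0 min. ND4 was at 232, 297 and 399.8 CPM at G, against 70.3, 110.3 and 149 CPM at A (lowest, median and highest of 3 libraries each), with no overlap and a log2 fold change of 2.62 ± 0.26 (edgeR adjusted p = 9.72e-17). ATP6 was at 714, 905 and 1018 CPM at G, against 239, 272 and 431 CPM at A, also with no overlap and a log2 fold change of 2.64 ± 0.30 (edgeR adjusted p = 2.47e-13). CYTB was at 627, 658 and 863 CPM at G, against 316, 369.8 and 374 CPM at A, and ND5 was at 137.5, 163 and 297 CPM at G, against 70.3, 82.4 and 110.3 CPM at A. These 4 were called with library totals alone as well, where 29.5% of all genes were called higher. Relative to the median gene all 12 lay above 0, 9 of them by at least 2-fold. With no filter, where the median gene stood at 2.06, only 3 of 12 lay above it and 5 lay at least 2-fold below.

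COX1 in the repeats is a case where the scaling decides. It was at 1420, 1797 and 2028 CPM at G, against 1565, 1694 and 1823 CPM at A, with full overlap, while its TMM-scaled log2 fold change was 1.29 ± 0.42 (edgeR adjusted p = 0.00399). With library totals alone that fold was 0.12 ± 0.30, and COX1, COX2, COX3, ND1 and ND2 were no longer called. The call for COX1 was also lost without replicate 1 and without replicate 3. ND4L was at 275, 658 and 686 CPM at G, against 760, 1139 and 1285 CPM at A, with no overlap. Its TMM-scaled log2 fold change of 0.29 ± 0.29 was not called, and with library totals alone it was -0.81 ± 0.25 (edgeR adjusted p = 0.00163, under the 2-fold limit), so the direction for ND4L is not settled by these data. None of the 12 was called by edgeR or DESeq2 between adjacent time points of the repeats, where 3, 5, 6, 0, 2 and 2 of the 12 had an unadjusted edgeR p under 0.05 from A to B through F to G. Of all genes tested edgeR called 41.1% (A to B), 47.3% (B to C), 19.1% (C to D), 48.2% (D to E), 46.7% (E to F) and 23.6% (F to G).

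**Figure D3:**
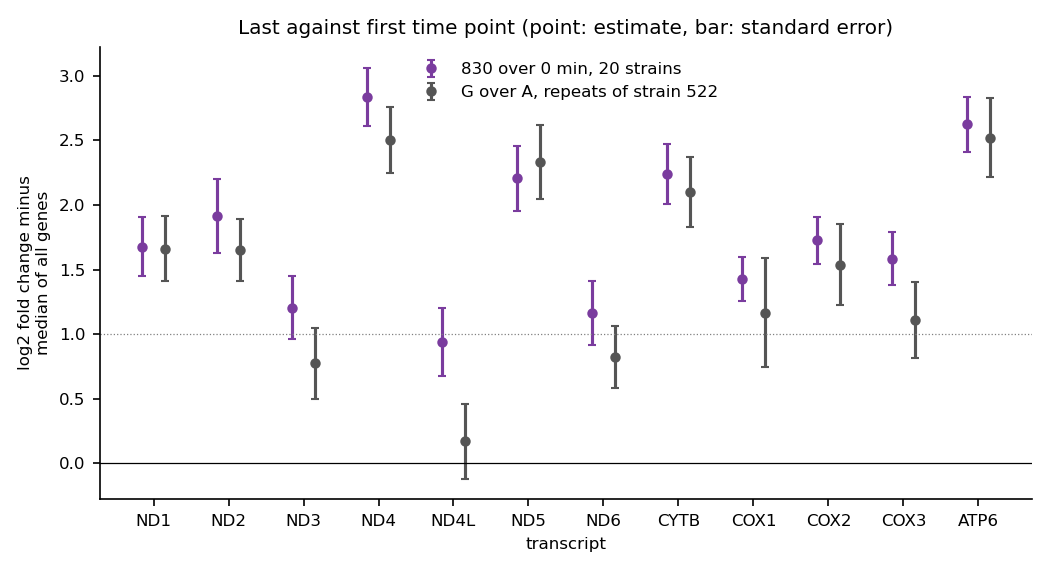
Log2 fold change of each transcript minus the median of all genes tested (y axis, bars are the SE of the fold), for 830 over 0 min in 20 strains and for G over A in the repeats of strain 522. ND4, ATP6, CYTB and ND5 stand highest in both, and ND4L lowest.

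Strain 522 was thus sequenced in both settings, and its values can be set side by side. Its own 7 libraries in the strain series had mitochondrial shares of 0.854%, 0.612%, 1.51%, 1.60%, 1.23%, 1.28% and 1.67% from 0 to 830 min, and the median shares of the repeats from A to G were 0.663%, 0.703%, 0.813%, 0.998%, 0.831%, 0.915% and 0.838%. The strain libraries were above the repeats at 6 of 7 positions, with the letters matched in order to the stages.

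Ratios between transcripts of one library do not depend on the scaling, and several differed between adjacent stages. In all, 5 ratios were tested at 6 adjacent steps, 30 tests, on the log2 ratio of counts with 0.5 added to each, by a two-sided permutation test over the within-strain differences (100000 random sign changes). Of the 30, 8 passed a Benjamini-Hochberg adjusted p under 0.05.

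The ratio of COX1 to COX2 had a lowest, median and highest value of 0.808, 1.04 and 1.56 at 180 min, against 0.862, 1.62 and 5.74 at 60 min. It fell by 0.66 ± 0.12 on the log2 scale (SE, n = 20 strains, permutation adjusted p = 0.0008), being lower at 180 min in all but 3 strains. COX2 thus drew level with COX1 at 180 min. Afterwards COX1 moved ahead again. The ratio was 0.925, 1.24 and 2.29 at 270 min, a log2 rise of 0.25 ± 0.08 relative to 180 min (permutation adjusted p = 0.0169, higher in 16 of 20 strains). At 830 min it was 1.19, 1.83 and 2.62, against 1.05, 1.49 and 1.84 at 650 min, a log2 rise of 0.32 ± 0.09 (permutation adjusted p = 0.0102, higher in 17 of 20).

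COX1 to COX3 behaved alike at the same step. It had a lowest, median and highest value of 0.929, 1.34 and 1.87 at 180 min, against 1.29, 1.91 and 4.74 at 60 min, and fell by 0.53 ± 0.11 on the log2 scale (permutation adjusted p = 0.0008, higher in 3 of 20 strains). COX2 to COX3 passed at none of the 6 steps over all 20 strains. With only strains that had at least 10 counts on both sides, it rose from 0 to 60 min by log2 0.45 ± 0.12 (permutation adjusted p = 0.00513, higher in 13 of 14 strains). Under that limit CYTB to COX1 from 60 to 180 min (0.40 ± 0.12, permutation adjusted p = 0.00942) and COX1 to COX3 from 270 to 440 min (0.26 ± 0.10, permutation adjusted p = 0.0458) passed as well.

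ATP6 gained on COX1 over both early steps. The ratio of ATP6 to COX1 was 0.119, 0.413 and 0.851 at 60 min, against 0.133, 0.273 and 0.450 at 0 min, a log2 rise of 0.54 ± 0.13 (permutation adjusted p = 0.00135, higher in 18 of 20 strains). It was 0.362, 0.618 and 1.05 at 180 min, a further log2 rise of 0.67 ± 0.11 relative to 60 min (permutation adjusted p = 0.0008, higher in 18 of 20). At 270 min it was 0.246, 0.496 and 0.976, and fell by 0.45 ± 0.12 on the log2 scale from the stage before (permutation adjusted p = 0.00384, higher in 5 of 20). CYTB to COX1 was 0.234, 0.366 and 0.706 at 830 min, against 0.253, 0.483 and 0.907 at 650 min, and fell by 0.31 ± 0.11 (permutation adjusted p = 0.035, higher in 7 of 20).

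The 2 library sets bear on these ratios separately. In the other 14 strains alone 5 of the 8 passed, the steps of COX1 to COX2 and COX1 to COX3 from 60 to 180 min and the 3 steps of ATP6 to COX1. Among the first 6 strains the smallest p that sign changes allow is 0.0312. The smallest adjusted p was 0.104, so none passed there. There the ratio of COX1 to COX2 was lower at 180 than at 60 min in all 6 strains (-0.70 ± 0.05), and ATP6 to COX1 was higher in all 6 (0.81 ± 0.13).

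The transcripts were also set against COX1 of the same library over the whole course. The within-strain log2 change from 0 to 830 min averaged 1.23 ± 0.95 for ND4 (SD, n = 20, higher in 19 strains), 1.13 ± 0.70 for ATP6 (19 strains), 1.11 ± 0.96 for CYTB (18 strains) and 0.81 ± 1.05 for ND5 (15 strains). The means of COX2 (0.28), ND1 (0.26), ND2 (0.38) and COX3 (0.10) were smaller. ND3 (-0.10), ND6 (-0.23) and ND4L (-0.40 ± 1.33, higher in 7 strains) had means below 0, within a wide spread. In the repeats, the means at G minus those at A were 1.46 for ND4, 1.47 for ATP6, 0.97 for CYTB and 1.07 for ND5, and -1.08 for ND4L. These whole-course ratios are given as descriptions, with no test.

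**Figure D4:**
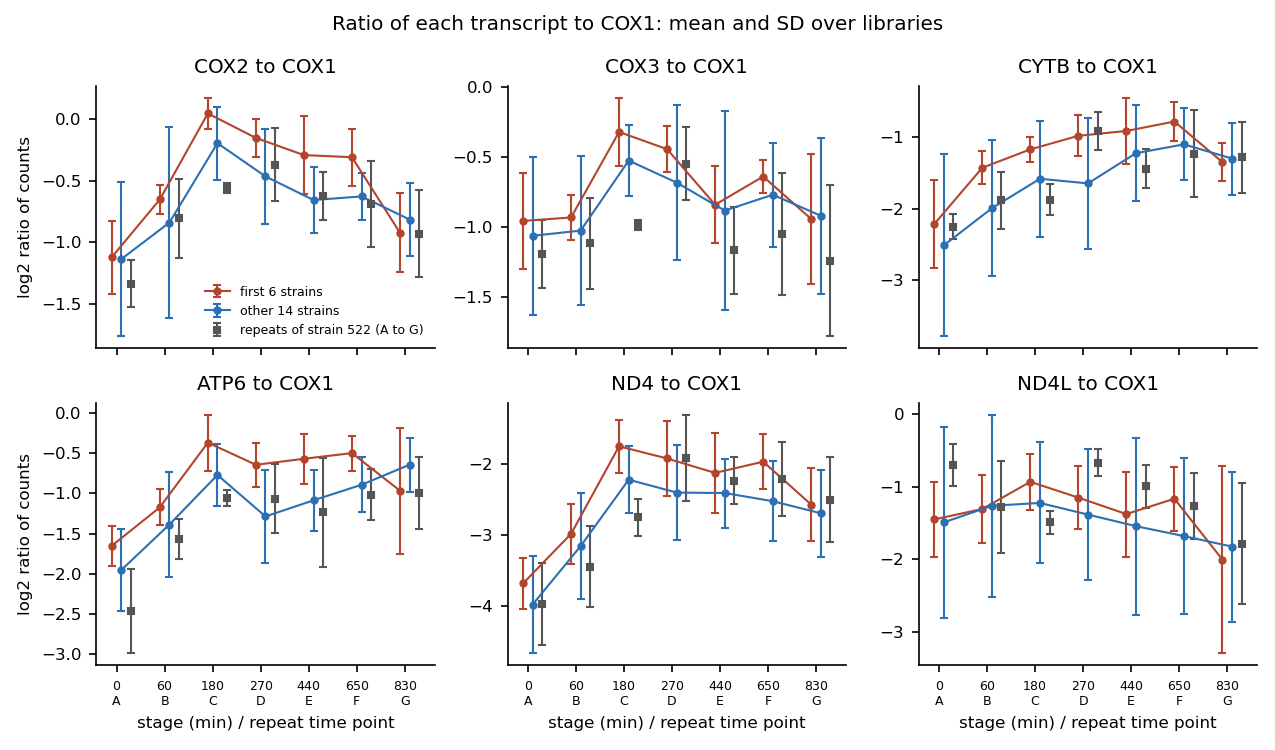
Mean log2 ratio to COX1 of 6 transcripts by stage (x axis, minutes or letters), with bars of 1 SD, for the first 6 strains, the other 14 strains and the repeats of strain 522. The ratio of COX2 to COX1 is highest at 180 min in the strains, and ATP6, ND4 and CYTB lie lowest at the first stage.

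The first 6 strains had a higher median share of mitochondrial counts than the other 14 at every stage. The share had a lowest, median and highest value of 0.938%, 2.01% and 4.70% in the 42 libraries of the first 6, against 0.215%, 0.893% and 1.93% in the 98 of the other 14. At 0, 60, 440 and 650 min the sets did not overlap, and at 180, 270 and 830 min the first 6 were higher in 80, 81 and 74 of 84 pairs of strains. In a fit over all 140 strain libraries with stage as a term, 11 of 12 transcripts were called higher in the first 6, beside 3.4% of 2970 genes tested. The step between the sets was known from an earlier look at these same transcripts. The fit therefore describes its size, and its p-values are not independent support for the division. COX2 had a log2 fold change of 1.34 ± 0.08 (edgeR adjusted p = 4.87e-33), ATP6 of 1.48 ± 0.09 (1.89e-30) and ND4 of 1.46 ± 0.09 (5.34e-31), and the smallest of those called was ND5 at 1.10 ± 0.12. ND4L, at 0.98 ± 0.15, stayed under the 2-fold limit. Libraries of 1 strain share whatever set it apart, and on counts summed per strain (6 against 14) 5 were called, ATP6, ND1, ND3, ND4 and ND6. Without N2, 10 were called and ND2 was not.

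The size of the step varied. The ratio of the median level in the first 6 to that in the other 14 ran from 1.64 for ND2 at 830 min to 3.87 for ND1 at 0 min. The log2 ratio to COX1 was offset between the sets by -0.02 for ND5 to 0.41 for ND1, averaged over the stages, with the first 6 minus the other 14. For ND4 it was higher in the first 6 at 7 of 7 stages, and differences in the step between transcripts were not tested. A test of the set by stage interaction called none of the 12, beside 5.56% of genes, with 0 at an unadjusted p under 0.05 and 0 by DESeq2. Nuclear-encoded subunits were tested in the same fit. Of 27 complex I, 4 complex II, 6 complex III and cytochrome c, 7 complex IV and 10 complex V genes tested, 1 was called, asg-2 of complex V (1.17 ± 0.11, edgeR adjusted p = 3.96e-17), and their list medians were log2 0.58, 0.17, 0.21, 0.38 and 0.36. At an unadjusted p under 0.05 there were 25, 4, 3, 6 and 8 of them. The share of all genes at that p was not computed, so these counts are not read as particular to the lists. Median total counts were also higher in the first 6, as given above. The summed level of the 6 vitellogenins, yolk proteins of the adult intestine, had a median of 545 CPM in the first 6, with 2 of 42 libraries at 0, against 247 CPM in the other 14, with 6 of 98 at 0. Sperm proteins of the msp family were at 0 in 30 of 42 and 77 of 98 libraries. The part of depth or of adult RNA in the step was not tested.

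Strains differed within the other 14 as well. A test over strains with stage as a term called 11 of 12 there, beside 8.27% of genes tested, led by ND4L (edgeR adjusted p = 9.01e-13), ND6 (1.29e-12) and COX3 (2.01e-09), with ND4 the exception (0.0764). Among the first 6 it called 1 of 12, ND6 (edgeR adjusted p = 0.0394), beside 0.833% of genes, and that call was lost without the libraries of low total. DESeq2 called 7 of 12 there, library totals alone gave 4 and RLE scaling 3. The SD of log2 levels between libraries of the same stage in the other 14 was 1.03 for ND4L, 0.97 for ND2 and 0.88 for ND6. It was 0.39 for COX1 and 0.41 for COX2. For the other complex I transcripts it was 0.83 for ND3, 0.69 for ND5, 0.67 for ND1 and 0.53 for ND4, against 0.80 for CYTB. This SD mixes strain differences with counting error. A constant was added to each CPM before the logarithm, which lowers the SD of low transcripts such as ND4. Pairwise correlations over the 140 strain libraries ran from 0.18 for COX1 and ND4L to 0.86 for ND4L and ND6, with a median of 0.53 over 66 pairs. All share library depth and the step between sets, and ND4L and ND6 also overlap in the annotation.

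Strain 508, singled out after its values were seen, had an unusual make-up. Its ratio of ND4L to COX1 was 1.29, 1.84, 1.17, 1.90, 3.45, 1.81 and 1.12 from 0 to 830 min, the highest of the 14 strains at all 7 stages. The medians of the other 13 were 0.409, 0.434, 0.413, 0.374, 0.351, 0.364 and 0.236, and their highest values were 1.15, 1.48, 0.839, 0.616, 0.498, 0.474 and 0.707. From 180 min on, its lowest ratio lay above the highest of the other 13.

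The excess in 508 was not one of ND4L alone. ND6 to COX1 was highest at 6 of 7 stages and ND5 to COX1 at 7 of 7. Against the mean of the 14 strains, averaged over stages, the log2 deviations were 2.23 ± 0.59 for ND4L (SD over 7 stages), 1.71 ± 0.45 for ND6, 1.40 ± 0.55 for ND5, 1.17 ± 0.49 for ND2, 0.96 ± 0.32 for ND1, 0.93 ± 0.57 for COX3, 0.91 ± 0.57 for CYTB and 0.77 ± 0.46 for ND4, each above the mean at all 7 stages. COX1 itself was the lowest of the 14 at 2 stages. At 270 min it was 1275 CPM in 508, against 1341 CPM or more in the other 13, and at 650 min 1125 CPM, against 1339 CPM or more. ND4L reached 4888 CPM at 440 min in 508, against at most 1174 CPM in the other 13. The total share of 508 deviated by log2 0.56 ± 0.27.

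Strain 517, likewise chosen after its values were seen, was low in several ratios. Its ND6, ND4L and ND2 to COX1 ratios were below the mean of the 14 at all 7 stages, with log2 deviations of -1.25 ± 0.38, -1.18 ± 0.74 and -1.17 ± 0.79. That mean includes strain 508, whose high ratios raise it, and it was not recomputed without 508. At 270 min ND4L to COX1 was 0.348 in 517 and 1.90 in 508. It was the lowest of the 14 at 4 of 7 stages for ND6, and at 1 of 7 for ND4L and for ND2. The counts are small, with 1 to 24 for ND4L per library of this strain. In strain 566 CYTB to COX1 was above the mean at all 7 stages, by 1.07 ± 0.32. COX1 itself was low in 566, the lowest of the 14 at 440 min (1399 CPM, next 1403 CPM in 508). At 650 min it was 1339 CPM, with only 508 lower (1125 CPM). The part of low COX1 in this ratio was not tested. Of the 154 pairs of a strain and a ratio to COX1 in the other 14, 20 lay above and 6 below the set mean at every stage, and of the 66 in the first 6, 2 lay above and 5 below. Strain 564 combined a high share, with a median of 1.51% over its stages and a log2 deviation of 0.63 ± 0.28, with all but COX2 of its 12 levels above the set mean at all 7 stages.

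**Figure D5:**
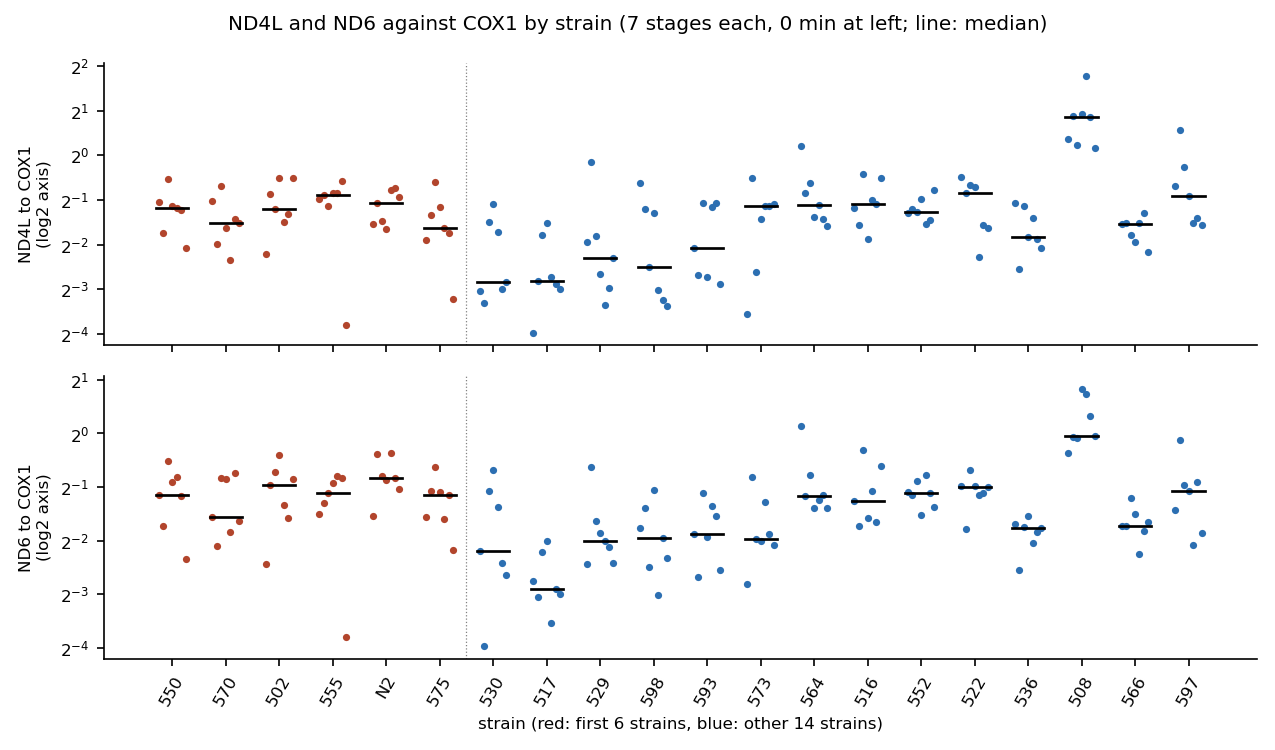
Ratio of ND4L and of ND6 to COX1 (y axis, log2 scale) in the 7 libraries of each of the 20 strains (x axis), 1 point per stage, with the median as a bar. Strain 508 holds the highest values in both panels and strain 517 some of the lowest.

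The nuclear-encoded partners were counted in the same libraries. Summed over 64 nuclear genes of complexes I to V and cytochrome c, their share of gene counts had medians of 2.21%, 2.90%, 1.65%, 1.76%, 1.86%, 1.88% and 2.48% from 0 to 830 min. The ratio of mitochondrial to these nuclear counts had medians of 0.275, 0.322, 0.839, 0.807, 0.706, 0.605 and 0.456. In the repeats it was 0.351, 0.304, 0.583, 0.589, 0.457, 0.485 and 0.330 from A to G. The strain medians mix the library sets. The ratio was highest at 440 min in the first 6 strains (1.47, against 1.12 at 180 min) and at 180 min in the other 14 (0.644), and it is given with no test.

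From 60 to 180 min, the step at which ND4 rose, 6 of 8 complex V genes tested were called lower, beside 22% of all genes tested. The other lists held 2 of 15 of complex I, 1 of 1 of complex II, 0 of 5 of complex III and cytochrome c (3 at an unadjusted p under 0.05) and 1 of 7 of complex IV, in all 4 of 28, or 14.3%. In these lists 0 genes were called higher. The 2 leading members of complex V were asg-1 (-1.84 ± 0.13, edgeR adjusted p = 2.37e-19) and atp-4 (-1.17 ± 0.12, 3.95e-13), both subunits of the ATP synthase. In complex I they were nduv-2 (-1.12 ± 0.13) and nduf-11 (-1.14 ± 0.16), in complex II sdhb-1 (-1.58 ± 0.13), and in complex IV cox-6A (-1.07 ± 0.12). From 0 to 60 min cox-7C of complex IV was the 1 of 7 called, as higher (1.13 ± 0.14).

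Between 830 and 0 min, 3 of 6 genes of complex III and cytochrome c and 2 of 7 of complex IV were called higher, beside 34.2% of all genes tested, among them cytochrome c itself, cyc-2.1 (1.77 ± 0.16), ucr-2.1 (2.34 ± 0.22), cox-6C (1.46 ± 0.17) and cox-7C (1.07 ± 0.17). In complex II, 1 of 4 was called, sdha-1 (1.20 ± 0.21), and in complex I 0 of 12, with 5 at an unadjusted p under 0.05. Complex V held 1 of 9 higher and 1 lower. Over complexes I to V together 7 of 38 were called higher, or 18.4%, which is below the 34.2% of all genes tested. On counts corrected for an upper limit, 6 of 6, 7 of 7, 2 of 4 and 4 of 12 were called higher in the lists of complex III, IV, II and I. That correction also moved the median log2 fold change of all genes tested from -0.36 to 0.24. The 34.2% does not apply to it, so these counts are not read as particular to the complexes. Complex V held the largest contrast, with asb-2 higher (3.09 ± 0.21) and asb-1 lower (-3.50 ± 0.25, where 43.4% of all genes tested were called lower), 2 genes for the same subunit of the ATP synthase, of which asb-1 is known as the germline form. In the deeper repeats many more passed the filter, and 27 of 31 complex I, 7 of 7 complex III and cytochrome c and 7 of 7 complex IV genes were called higher at G than at A, beside 39.2% of all genes tested. Complex II held 4 of 5 higher and 1 lower, and complex V 7 of 10 higher and 1 lower. Their 2 leading members were ndub-10 (1.84 ± 0.24) and nduf-5 (1.68 ± 0.24) of complex I, ucr-2.1 (3.55 ± 0.28) and ucr-1 (1.98 ± 0.24) of complex III, and cox-6C (2.55 ± 0.26) and cox-6B (1.93 ± 0.26) of complex IV. All 6 vitellogenins were called lower at G, beside 31.3% of all genes tested, led by vit-5 (-6.23 ± 0.44) and vit-6 (-6.26 ± 0.44). Of 25 genes of the mitochondrial ribosome tested, 13 were called higher, beside the same 39.2% of all genes tested, with mrps-11 (1.96 ± 0.27) and mrpl-16 (2.18 ± 0.30) first. These nuclear folds carry the same dependence on scaling as those of the mitochondrial transcripts in the same comparisons.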

How the data were processed

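RNA was measured in 161 libraries of whole C. elegans embryos. The authors deposited whole-number raw counts of each gene. CASAVA 1.8 and Bowtie2 2.1.0 are named, per the submitters' processing notes. The counting program is not given in the sources used here. Neither are genome build, annotation, strandedness and any molecular identifiers, so coordinates are left out. Rows naming no gene were left out of totals. In the library columns that list them, 38.8% to 70.2% of reads did not align. A further 15 columns of values, copies of libraries among them, were not used.

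Counts were tested with edgeR 4.0.16 in R 4.3.3 (quasi-likelihood test, TMM scaling, filterByExpr, tests two-sided), fitted to all genes of both groups with the library set as a term, and checked on simulated data. DESeq2 1.42.0 was an alternative. Descriptions used Python 3.11.15 and pandas 2.3.3. P-values were adjusted over all genes tested, and n is the number of strains or libraries. Counts at an unadjusted p have no share of all genes beside them and are not results about the members. Mitochondrial rRNA and tRNA are not analysed here. Libraries of the same strain pair across stages (median correlation of deviations 0.0935 over 420 pairs, against -0.01 between strains), and a strain block changed the count of called transcripts in no stage comparison.

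The 12 transcripts, the nuclear lists and the tests were chosen with earlier results of these data known. Named are all 12 and, for each comparison and nuclear list with a called gene that is described, the 2 called genes with the smallest p. Alternatives were other scalings, no filter, other tests and fits, left-out libraries and other pseudocounts. Library totals alone and counts corrected for an upper limit of 1024 were alternatives chosen after seeing the data.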

Additional observations from a re-analysis of the deposited data

Results flagged for a closer look

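Strain N2 stood apart from the other 5 of the first 6 strains in the share of gene counts on the 12 mitochondrial transcripts at 2 stages. At 60 min its share was 2.14%, and the next highest of the set was 1.60%, a gap of 0.701 of the range, past the critical value of Dixon's test for 6 values. At 650 min its share was 4.70%, and the next highest was 2.52%, a gap of 0.769 of the range. The test was applied to this set at 7 stages, and chance flags about 1 in 20 groups. N2 had the highest share of the set at 6 of 7 stages. Its library at 650 min held 33541 counts, below the median of the set. The part of depth was not tested.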

How the results depend on the processing

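From 0 to 60 min the 1 call (ND4) became 0 with RLE scaling, with DESeq2, with no library set term, in the first 6 strains alone, in the other 14 alone, without N2 and with counts corrected for the upper limit. In the last 3 of these ND4 did not pass the filter on low counts and was not tested. From 650 to 830 min the first 6 alone gave 2 in place of 0. From 0 to 830 min 9 became 5 with RLE scaling or DESeq2 and 4 with library totals alone, while other settings gave 7 to 12. In the repeats, A to G gave 4 with library totals alone and 8 to 9 when 1 replicate was left out. Leaving out 1 replicate gave 0 to 1 for A to B and 0 to 2 for B to C, where the corrected counts gave 1, and 0 in the other adjacent pairs. On counts summed per strain, 11 of the first 6 against the other 14 became 5. Among the first 6 strains the 1 call became 3 with RLE scaling, 4 with library totals alone, 2 with no filter and 7 with DESeq2, and 0 with scaling without the 12 transcripts, without the libraries of low total and with corrected counts. Of the 8 ratios, 0 passed in the first 6 alone and 5 in the other 14. Among folds with an adjusted p under 0.05, library totals alone reversed 7: from 440 to 650 min ATP6 (-0.0104), CYTB (-0.0557), COX1 (-0.15) and COX2 (-0.13), from 0 to 830 min ND4L (-0.11), and from A to G ND6 (-0.14) and ND3 (-0.16). Over all 179 folds tested, whatever their p, 36 turned sign, among them all 12 from 440 to 650 min, 9 from D to E and ND4L from A to G (-0.81). The cause of these shifts was not tested. The share stayed between 1.09% and 1.13%. Replicate numbers of the repeats did not pair the libraries (median correlation of deviations -0.00787 over 63 pairs, 11 over 0.1), and the replicate block left A to G at 9 and the adjacent pairs at 0. Of the other alternative values of folds with an adjusted p under 0.05, 704 kept their direction and side of the threshold, 26 passed it and 32 lost it. At a median total of 57199 counts, ND4 and ND5 rest on medians of 21.5 and 18 counts a library.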
